A study of Sus scrofa with 9 samples.

Results

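The interferon-stimulated genes and immunoproteasome subunits described here are 40 genes chosen by symbol, of which 38 were among the 29837 symbols in the deposited count table. The other 2, IFIT5 and RNF213, were not analysed here under those symbols. RNA was sequenced from the livers of 9 female pigs, each 2 years old. In the MIDY group, 4 animals carried the INS C94Y transgene (MIDY is mutant INS gene-induced diabetes of youth, a diabetes caused by misfolding insulin), and 5 animals were wild type (WT). The diabetic pigs also received daytime insulin of short and long action, so genotype, diabetes and insulin treatment cannot be told apart. All pigs were fed daily under controlled housing. The promoter that drives the transgene is not given in the sources used here, and INS itself had 0 to 2 reads per liver library, which gives no check of the genotype labels. Each library carries the number of a separate animal. Replicates are numbered here within each group.

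Interferons are secreted when a cell senses foreign or misplaced nucleic acid. They bind receptors on the same and on neighbouring cells, and the receptor-bound kinases JAK1, TYK2 and JAK2 then activate transcription factors. Type I interferon signals mainly through a complex that holds STAT2 and IRF9 and switches on antiviral genes such as MX1 and ISG15. Interferon gamma favours IRF1, the guanylate-binding proteins, CXCL10 and the inducible proteasome subunits, which change the peptides a cell makes for antigen presentation. In liver, hepatocytes as well as Kupffer cells, endothelium and lymphocytes can express these genes.

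No member passed the test between MIDY and WT livers, but most members were at their highest in the same WT animal. WT replicate 2 had the highest level of all 9 libraries in 28 of the 35 members with enough counts to test, which is 80% of them, beside 11.9% of all 14100 genes tested. Its level over the mean of the other 4 WT libraries had a median of 1.93 over the members (range 0.786 to 4.1) and a median of 0.988 over all genes. MIDY replicate 2 was the highest MIDY library in 29 of the 35 members, or 82.9%, beside 23.2% of all genes. WT replicate 1 was the lowest WT library in 20 of the 35, or 57.1%, beside 20.7% of all genes. Levels are in CPM, the reads of a gene per 1e6 reads of its library, scaled by edgeR's trimmed mean of M-values (TMM), and were not compared between genes because they are not per length.

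**Figure D1:**
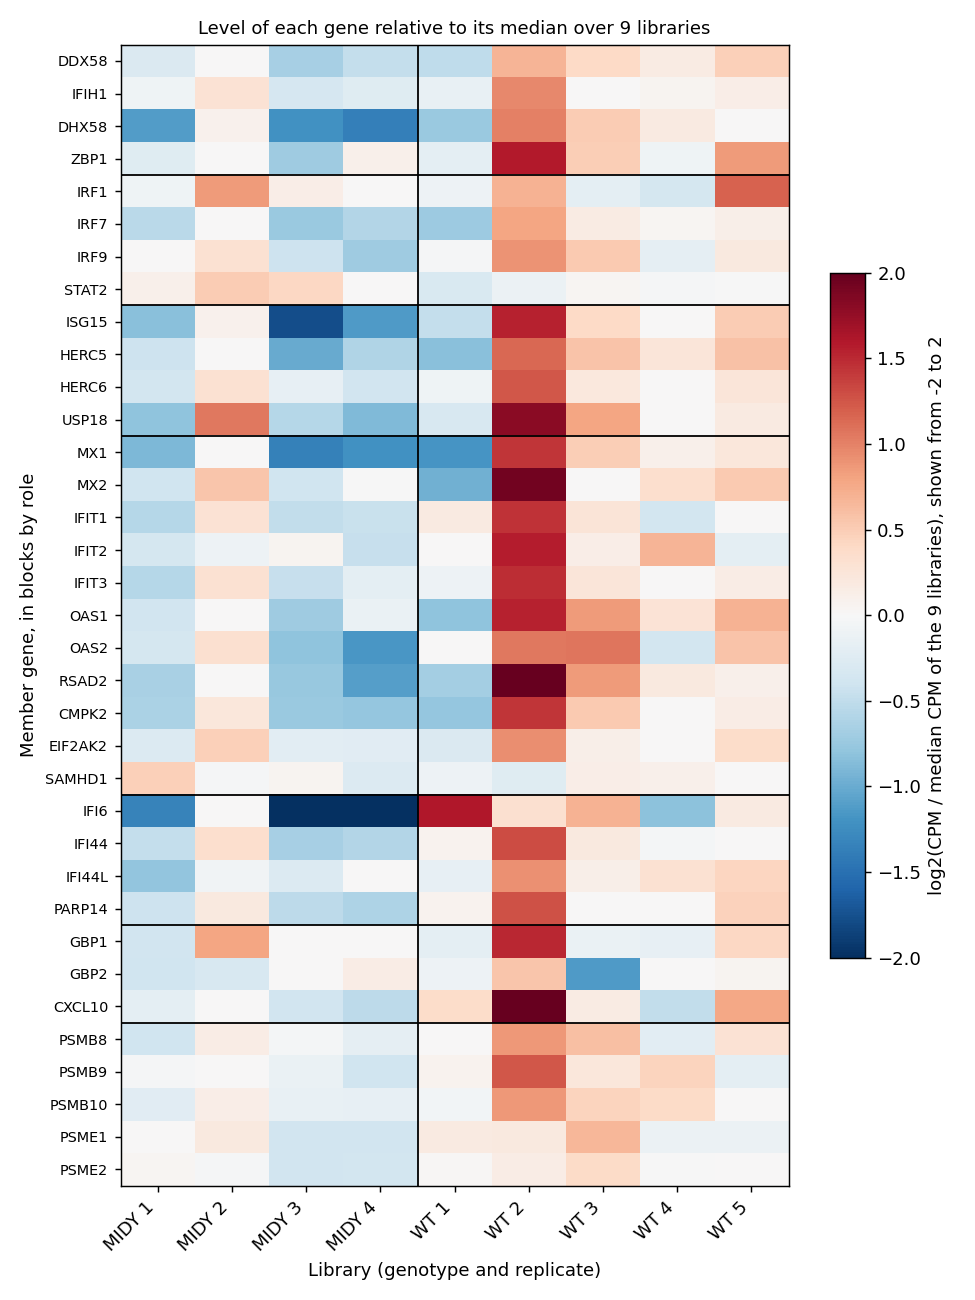
Level of each tested member in each library, as the log2 of its CPM over its own median of the 9 libraries, with colours limited to -2 and 2 and members blocked by role. The column of WT replicate 2 is high in nearly every block (median 1.15 over the members), MIDY replicate 2 is at 0.14, and the other MIDY libraries are between -0.41 and -0.39.

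The median over members of the log2 distance from the 9-library median was -0.39, 0.14, -0.41 and -0.40 in MIDY replicates 1 to 4. It was -0.12, 1.15, 0.25, 0.00 and 0.19 in WT replicates 1 to 5. Thus the MIDY libraries other than replicate 2 were below every WT library by this measure, and MIDY replicate 2 was above WT replicates 1 and 4. WT replicate 2 was above 2 times every other library in 6 members, RSAD2, MX2, CXCL10, IFIT3, IFIT1 and ISG15, which is 17.1% of members beside 0.298% of all genes. In 5 members that library was below 1.1 times the mean of the other WT libraries: STAT2, SAMHD1, IFI6, PSME1 and PSME2.

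**Figure D2:**
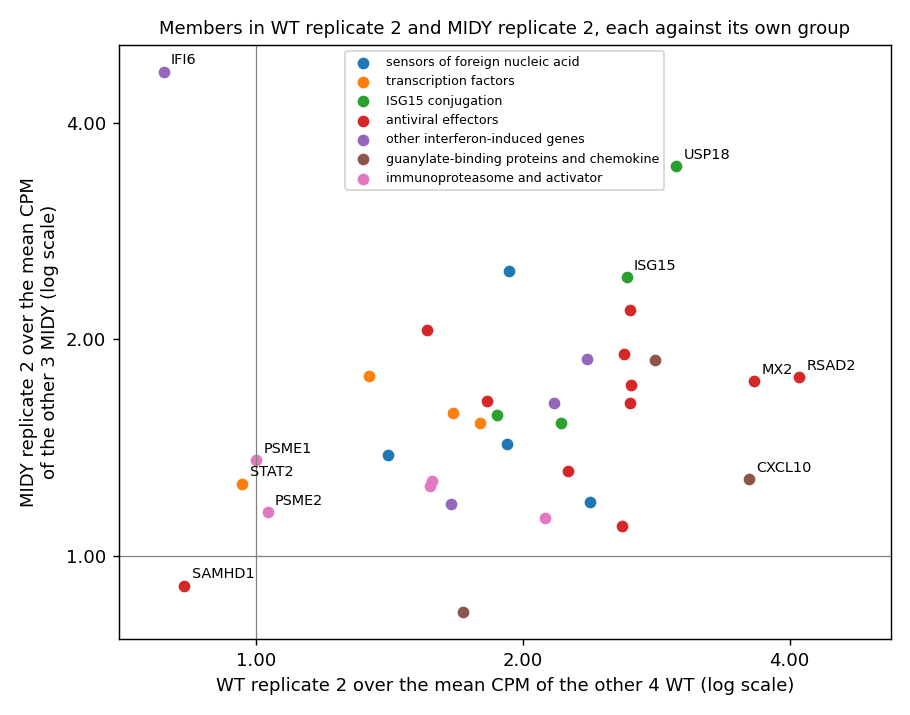
Each point is a tested member, with the level in WT replicate 2 over the mean of the other 4 WT libraries on the horizontal axis and the level in MIDY replicate 2 over the mean of the other 3 MIDY libraries on the vertical axis, both on log scales. Most points lie above 1 on both axes (medians 1.93 and 1.57), while IFI6 is below 1 for WT replicate 2 (0.786) and highest for MIDY replicate 2 (4.71).

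Library totals ranged from 14115415 to 19533463 counts, with WT replicate 2 the deepest and WT replicate 1 the shallowest. The 18S ribosomal RNA gene RN18S took 6.96% to 11.4% of counts, with 9.85% in WT replicate 2 and 9.95% in MIDY replicate 2. Hepatocyte markers, among them ALB, APOA1 and TTR, summed to between 113532 and 170505 CPM, which fits the liver label, and the lowest sum was that of WT replicate 2. That sum was mostly ALB, at 76644 CPM in this library. ALB and APOA1 were lowest in WT replicate 2, AHSG was highest there, and the other markers of the list had their lowest level elsewhere. The part of depth, ribosomal RNA and hepatocyte content in the results below was not tested.

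The first comparison asked whether the 35 tested members differed between MIDY and WT livers. By edgeR's quasi-likelihood test with Benjamini-Hochberg adjustment, 0 members were called at an adjusted p below 0.05, with adjusted p between 0.183 and 0.919, while 1.17% of all genes were called (0.355% lower and 0.816% higher in MIDY). Nevertheless 33 of the 35 log2 fold changes were below 0, or 94.3%, beside 50.7% of all genes. Their median was -0.69, beside -0.005 over all genes, and they ranged from -1.90 for IFI6 to 0.35 for STAT2. At an unadjusted p of 0.05 in edgeR's test, 18 members were lower, or 51.4%, beside 8% of all genes, and 1 was higher, beside 8.15%. DESeq2 called 1 member, ISG15, lower (adjusted p = 0.0445), beside 4.62% of all genes called in either direction and 2.05% lower, and gave 23 members lower at an unadjusted p of 0.05, beside 8.6% of genes. Limma voom called 0 members lower, beside 0.582% of genes. No member had groups that did not overlap, beside 2.63% of genes with every MIDY library lower and 3.72% with every MIDY library higher.

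Leaving out single libraries moved these values in opposite directions. The libraries singled out here were the lowest or highest of their group in most members. Shifts in these directions therefore follow in part from that choice, and the counts below do not test a group difference on their own. Without WT replicate 2, edgeR called 0 members (0.0862% of genes were lower), the median log2 fold change was -0.31, 8 members were lower at an unadjusted p of 0.05 beside 6.38% of genes (7.15% of genes were higher), and 34 of the 35 fold changes came nearer to 0. GBP1 and GBP2 then turned to 0.16 and 0.10, and 0 members had groups that did not overlap (3.35% of genes lower and 4.57% higher). Without WT replicate 1, edgeR's test called 3 members lower, beside 1.85% of genes in either direction and 0.765% lower: DDX58 (log2 fold change -0.78, adjusted p = 0.0355), HERC5 (-1.15, adjusted p = 0.0398) and OAS1 (-1.20, adjusted p = 0.0458). At an unadjusted p of 0.05, 23 members were then lower, beside 9.1% of genes. In that subset 7 members had every MIDY library below every WT library, and 0 the reverse, beside 4.86% and 5.61% of genes: DDX58, IRF7, HERC5, MX1, OAS1, RSAD2 and IFI44L. Without both, edgeR called 0 members (0.169% of genes were lower), the median was -0.39, and 11 were lower at an unadjusted p of 0.05, beside 7.36% of genes. Without MIDY replicate 2, it called 0 members (0.0279% of genes were lower), the median was -0.83, and 25 were lower at that unadjusted p, beside 6.23% of genes.

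**Figure D3:**
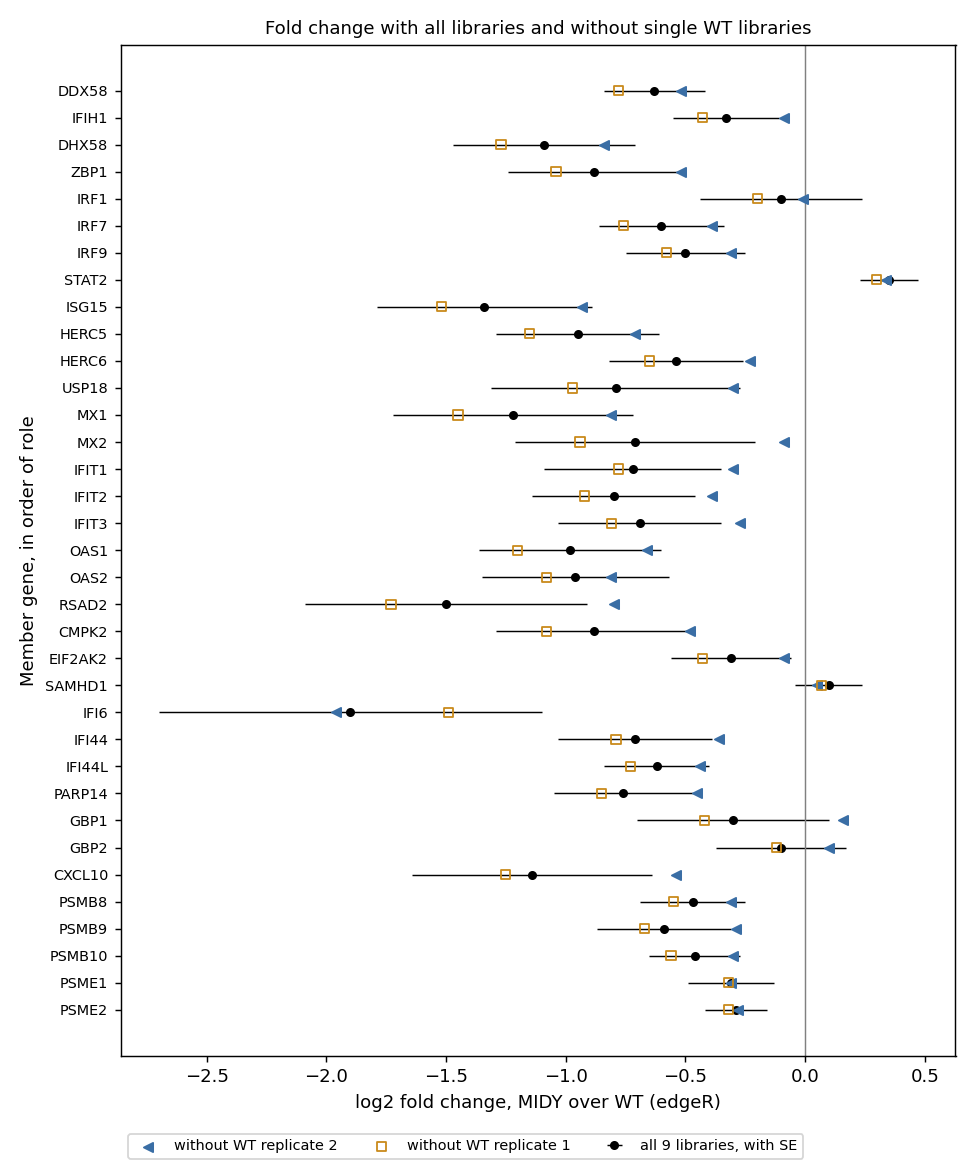
Log2 fold change (MIDY minus WT) of each tested member with its standard error over all 9 libraries, with triangles for the value without WT replicate 2 and squares for the value without WT replicate 1. Of the 35 values, 33 lie below 0, and 34 move toward 0 without WT replicate 2.

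All 4 sensors of foreign nucleic acid had fold changes below 0 (median -0.76), and each was highest in WT replicate 2. At an unadjusted p of 0.05 in edgeR's test 3 of them were lower, beside 8% of all genes. DDX58, which encodes RIG-I, the cytosolic sensor of RNA ends (chromosome 10, 33891720 to 33976151, Sscrofa11.1), stood at 49.5, 60.2, 38.1 and 43.2 CPM in the MIDY libraries and 42.5, 96.6, 79.7, 67.4 and 83.8 CPM in the WT libraries. Only WT replicate 1 lay within the MIDY range. Its means were 47.8 ± 9.54 (SD, n = 4) and 74 ± 20.5 (SD, n = 5) CPM, with a log2 fold change of -0.63 ± 0.21 (SE) and an adjusted p of 0.183 in edgeR's test. DDX58 overlaps the annotated span of ACO1, and strand use in counting is not given in the sources used here.

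IFIH1, which encodes the long double-stranded RNA sensor MDA5, was at 20.7, 26.9, 17.3 and 18.6 CPM in MIDY and 19.7, 42.5, 21.9, 22.7 and 24 CPM in WT. WT replicate 2 stood alone, and the other WT values lay inside the MIDY range (log2 fold change -0.33 ± 0.22, edgeR adjusted p = 0.499, and -0.09 without WT replicate 2). DHX58, encoding LGP2, a regulator of the other 2 RNA sensors, had 1.56, 3.61, 1.47 and 1.31 CPM in MIDY and 2.02, 6.79, 4.83, 3.85 and 3.39 CPM in WT. MIDY replicate 2 reached the level of WT replicates 4 and 5, while the other MIDY libraries were below all WT libraries (log2 fold change -1.09 ± 0.38, edgeR adjusted p = 0.189). ZBP1, a sensor of Z-form nucleic acid, was 2.38 times the mean of the other WT libraries in WT replicate 2 (log2 fold change -0.88 ± 0.36, edgeR adjusted p = 0.256).

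The transcription factors went in both directions. IRF7, which amplifies type I interferon production (chromosome 2, 372235 to 375572), had 4.37, 6.32, 3.79 and 4.2 CPM in MIDY and 3.82, 10.9, 7.11, 6.49 and 6.89 CPM in WT. As with DDX58, WT replicate 1 alone fell among the MIDY values (log2 fold change -0.60 ± 0.26, edgeR adjusted p = 0.284). STAT2, a transcription factor of type I signalling (chromosome 5, 21733030 to 21748960), was at 111, 148, 138 and 104 CPM in MIDY and 84.1, 95.4, 107, 102 and 103 CPM in WT. Its MIDY libraries were mostly the higher ones, overlapping WT only through WT replicate 3, with means of 125 ± 21 (SD, n = 4) and 98.2 ± 8.95 (SD, n = 5) CPM. It was the 1 member higher at an unadjusted p of 0.05 (log2 fold change 0.35 ± 0.12, edgeR adjusted p = 0.187), and its span overlaps IL23A. IRF9, a DNA-binding part of the complex that holds STAT2, had a fitted log2 difference of -0.50 ± 0.25 (edgeR adjusted p = 0.359), and IRF1 had -0.10 ± 0.34 (edgeR adjusted p = 0.919).

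ISG15 is a ubiquitin-like protein that interferon-treated cells attach to other proteins, HERC5 is the ligase that attaches it, and USP18 removes it and restrains the receptor. ISG15 (chromosome 6, 63363201 to 63364211) was at 2.12, 4.03, 1.11 and 1.73 CPM in MIDY and 2.71, 11, 4.97, 3.78 and 5.37 CPM in WT. WT replicate 2 was the highest by far, and MIDY replicate 2 overlapped the low WT libraries. The means were 2.25 ± 1.26 (SD, n = 4) and 5.57 ± 3.23 (SD, n = 5) CPM, and the fitted log2 difference was -1.34 ± 0.45 (edgeR adjusted p = 0.183) and -0.93 without WT replicate 2. An uncharacterised model, LOC110261384, overlaps ISG15.

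HERC5 (chromosome 8, 130532256 to 130591158) had 7.42, 9.92, 4.95 and 6.55 CPM in MIDY and 5.56, 22, 14.8, 11.7 and 14.9 CPM in WT. All WT libraries but replicate 1 were above all MIDY libraries (log2 fold change -0.95 ± 0.34, edgeR adjusted p = 0.209). Its neighbour HERC6, a related ligase (chromosome 8, 130594941 to 130665591), stood at 13.9, 22.3, 16 and 13.8 CPM in MIDY and 16.9, 42.6, 20.8, 18 and 21.4 CPM in WT. Here WT replicate 2 alone was separate, since the other WT libraries lay below MIDY replicate 2 (log2 fold change -0.54 ± 0.28, edgeR adjusted p = 0.369). For USP18 the levels were 0.936, 3.4, 1.11 and 0.891 CPM in MIDY and 1.32, 5.7, 2.83, 1.64 and 1.86 CPM in WT. Both replicates numbered 2 led their groups (log2 fold change -0.79 ± 0.52, edgeR adjusted p = 0.493). UBA7, the enzyme that activates ISG15, had 0 to 3 counts per library and was not tested.

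**Figure D4:**
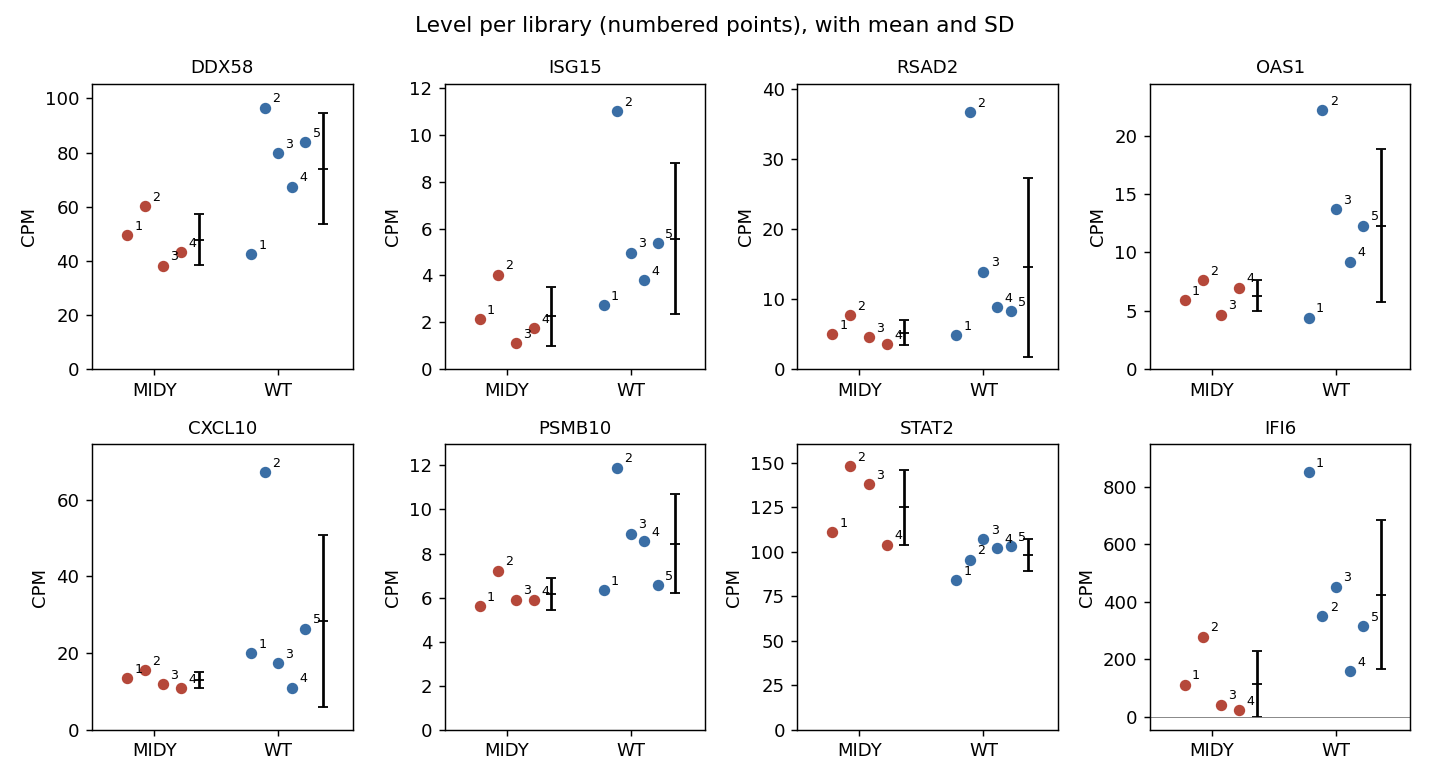
Level in CPM of DDX58, ISG15, RSAD2, OAS1, CXCL10, PSMB10, STAT2 and IFI6 in each library, with points numbered by replicate and bars for mean and SD in the 4 MIDY and 5 WT libraries. WT replicate 2 is the top point for the first 6 genes (36.7 CPM for RSAD2), STAT2 is higher on average in MIDY (125 CPM) than in WT (98.2 CPM), and IFI6 is highest in WT replicate 1 (851 CPM).

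Of the 11 antiviral effectors tested, 10 had fold changes below 0, 5 of them at an unadjusted p of 0.05 in edgeR's test, beside 8% of all genes. In WT replicate 2, 9 of the effectors were at their highest. The largest excess of that library belonged to RSAD2, encoding viperin, which makes a chain-terminating nucleotide (chromosome 3, 128880853 to 128897809). RSAD2 was at 4.93, 7.7, 4.53 and 3.57 CPM in MIDY and 4.8, 36.7, 13.9, 8.83 and 8.25 CPM in WT. WT replicate 1 lay within the MIDY range and WT replicate 2 at 4.1 times the mean of the other WT libraries. The fitted log2 difference was -1.50 ± 0.59 (edgeR adjusted p = 0.263) over all libraries and -0.80 without WT replicate 2. CMPK2, the nucleotide kinase gene beside it (chromosome 3, 128903395 to 128917873), had 6.36, 11.5, 5.85 and 5.77 CPM in MIDY and 5.77, 26.5, 14.2, 9.83 and 10.9 CPM in WT. These neighbours shared their highest library in both groups, and CMPK2 had a fitted log2 difference of -0.88 ± 0.41 (edgeR adjusted p = 0.33).

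OAS1, which makes the oligoadenylate that activates RNase L (chromosome 14, 38851083 to 38867427), was at 5.87, 7.63, 4.64 and 6.97 CPM in MIDY and 4.38, 22.2, 13.7, 9.2 and 12.3 CPM in WT. WT replicate 1 was the lowest library of all and the other 4 WT libraries exceeded every MIDY library (log2 fold change -0.98 ± 0.38, edgeR adjusted p = 0.245). The related OAS2 had a fitted log2 difference of -0.96 ± 0.39 (edgeR adjusted p = 0.268). IFIT1, which binds RNA lacking a host cap (chromosome 14, 101237403 to 101249486), was at 12.9, 23.3, 13.6 and 14 CPM in MIDY and 21.6, 52, 22.8, 14.8 and 19.1 CPM in WT. IFIT3, its partner protein (chromosome 14, 101214730 to 101225169), was at 6.68, 12.3, 7.22 and 8.7 CPM in MIDY and 9.25, 27.7, 11.8, 9.96 and 11 CPM in WT. For both genes MIDY replicate 2 was above each WT library other than WT replicate 2. The fold changes were -0.72 ± 0.37 for IFIT1 (edgeR adjusted p = 0.38) and -0.69 ± 0.34 for IFIT3 (edgeR adjusted p = 0.36), and IFIT2 had -0.80 ± 0.34 (edgeR adjusted p = 0.289). All 3 overlap the annotated span of LIPA.

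EIF2AK2, encoding the kinase PKR that stops translation on sensing double-stranded RNA, had 47.7, 80, 49.5 and 49.1 CPM in MIDY and 46.9, 110, 62.3, 57.5 and 73.9 CPM in WT. MIDY replicate 2 stood apart from the other 3 MIDY libraries, which were close together (log2 fold change -0.31 ± 0.25, edgeR adjusted p = 0.579). MX1 and MX2, named here after their values were seen, encode dynamin-like GTPases that block viral entry and assembly. MX1 was at 15.3, 28.5, 11.2 and 12.3 CPM in MIDY and 12.6, 77.1, 40.2, 30.6 and 33.4 CPM in WT, with WT replicate 1 again among the MIDY values (log2 fold change -1.22 ± 0.50, edgeR adjusted p = 0.285). MX2 had a fitted log2 difference of -0.71 ± 0.50 (edgeR adjusted p = 0.527), and -0.09 without WT replicate 2. SAMHD1, which degrades the nucleotides that viruses need, was the effector above 0 (0.10 ± 0.14, edgeR adjusted p = 0.79). OASL had 0 to 11 counts per library and was not tested.

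The 4 other interferon-induced genes tested all had fold changes below 0 at an unadjusted p of 0.05 in edgeR's test, beside 8% of all genes. Without WT replicate 2 this held for IFI44L and PARP14 (edgeR unadjusted p = 0.0302 and 0.0342). It did not hold for IFI44 and IFI6 (edgeR unadjusted p = 0.174 and 0.0619). IFI44L stood at 24.6, 40.3, 35.2 and 42.4 CPM in MIDY and 37.8, 80.1, 46.2, 52.1 and 57.2 CPM in WT. WT replicate 1 was below MIDY replicates 2 and 4, and the other WT libraries were above all MIDY libraries (log2 fold change -0.62 ± 0.22, edgeR adjusted p = 0.197). IFI44, its paralog, had 2.75, 4.86, 2.42 and 2.57 CPM in MIDY and 4.03, 9.44, 4.42, 3.72 and 3.84 CPM in WT. Apart from WT replicate 2, the WT libraries were all below MIDY replicate 2 (log2 fold change -0.71 ± 0.32, edgeR adjusted p = 0.304). PARP14, an ADP-ribosyltransferase, was at 11.9, 18.1, 11 and 10.3 CPM in MIDY and 16.6, 38, 15.8, 15.8 and 21.8 CPM in WT. Only MIDY replicate 2 reached the WT range (log2 fold change -0.76 ± 0.29, edgeR adjusted p = 0.232). XAF1 had 0 counts in every library.

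IFI6, a mitochondrial and endoplasmic reticulum protein with an antiviral role, was chosen for description after its values were seen. It lies on chromosome 6 (84852782 to 84858072) and had 111, 279, 42.7 and 23.8 CPM in MIDY and 851, 349, 453, 158 and 315 CPM in WT. Its order of libraries differed from that of the other members: WT replicate 1 was the highest, WT replicate 2 was 0.786 times the mean of the other WT libraries, and the highest library was 35.7 times the lowest. The fitted log2 difference was -1.90 ± 0.80 (edgeR adjusted p = 0.301), with means of 114 ± 116 (SD, n = 4) and 425 ± 260 (SD, n = 5) CPM.

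Both guanylate-binding protein genes and CXCL10, genes that interferon gamma induces strongly, were highest in WT replicate 2. GBP1, a GTPase that coats intracellular pathogens (chromosome 4, 127425699 to 127442132), was at 12.4, 27.9, 16.2 and 16.3 CPM in MIDY and 14.2, 45.9, 14.8, 14.4 and 21.6 CPM in WT. Outside WT replicate 2 the WT libraries lay inside the MIDY range (log2 fold change -0.30 ± 0.40, edgeR adjusted p = 0.778, and 0.16 without that library). CXCL10, a chemokine that attracts T cells (chromosome 8, 71693641 to 71695948), was at 13.5, 15.5, 11.9 and 10.8 CPM in MIDY and 20, 67.2, 17.3, 11 and 26.4 CPM in WT. WT replicate 4 was within the MIDY range and WT replicate 2 at 3.6 times the mean of the other WT libraries. The fitted log2 difference was -1.14 ± 0.50 (edgeR adjusted p = 0.304), and -0.54 without WT replicate 2. GBP2 had -0.10 (edgeR adjusted p = 0.901).

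The 5 immunoproteasome and activator genes had fold changes from -0.59 to -0.29 (median -0.46). Of these, 2 were lower at an unadjusted p of 0.05 in edgeR's test, beside 8% of all genes. PSMB8, PSMB9 and PSMB10 are the inducible catalytic subunits, and PSME1 and PSME2 form the PA28 cap. PSMB10 (chromosome 6, 28544910 to 28547609) was at 5.62, 7.22, 5.9 and 5.87 CPM in MIDY and 6.33, 11.9, 8.9, 8.57 and 6.55 CPM in WT. WT replicates 1 and 5 were below MIDY replicate 2, and the other WT libraries were above all MIDY libraries (log2 fold change -0.46 ± 0.19, edgeR adjusted p = 0.266). PSME2 (chromosome 7, 75154570 to 75157871) had 44, 42.3, 32.9 and 33.2 CPM in MIDY and 43.6, 47.5, 55.9, 42.5 and 42.8 CPM in WT. MIDY replicates 3 and 4 were low, and the other MIDY libraries were at the level of most WT libraries (log2 fold change -0.29 ± 0.13, edgeR adjusted p = 0.29). PSMB8 and PSMB9, which lie with the peptide transporter genes TAP1 and TAP2 on chromosome 7, had -0.47 ± 0.22 (edgeR adjusted p = 0.314) and -0.59 ± 0.28 (edgeR adjusted p = 0.327), and PSME1 had -0.31 ± 0.18 (edgeR adjusted p = 0.413).

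The level in WT replicate 2 over the mean of the other WT libraries was 1.58 for PSMB8, 2.12 for PSMB9 and 1.57 for PSMB10, but 1 for PSME1 and 1.03 for PSME2. IRF9, the neighbour of PSME1 and PSME2 on chromosome 7, was at 1.67. To set each inducible subunit beside the constitutive subunit whose place it takes, the log2 ratio of their counts was formed within each library. PSMB8 over PSMB5 was -1.95 ± 0.26 (SD, n = 4) in MIDY and -1.43 ± 0.35 (SD, n = 5) in WT, a difference of -0.52 (2-sided exact permutation p = 0.0635, adjusted over the 3 ratios 0.19). PSMB9 over PSMB6 was -3.72 ± 0.21 and -3.19 ± 0.62, a difference of -0.53 (2-sided exact permutation p = 0.127, adjusted 0.19). PSMB10 over PSMB7 was -4.16 ± 0.42 and -3.94 ± 0.44, a difference of -0.22 (2-sided exact permutation p = 0.508, adjusted 0.508). No ratio passed this test, whose smallest possible p is 0.00794. WT replicate 2 had the highest of all 9 values in each ratio (-1.02, -2.20 and -3.22), and without it the differences were -0.42, -0.28 and -0.04.

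**Figure D5:**
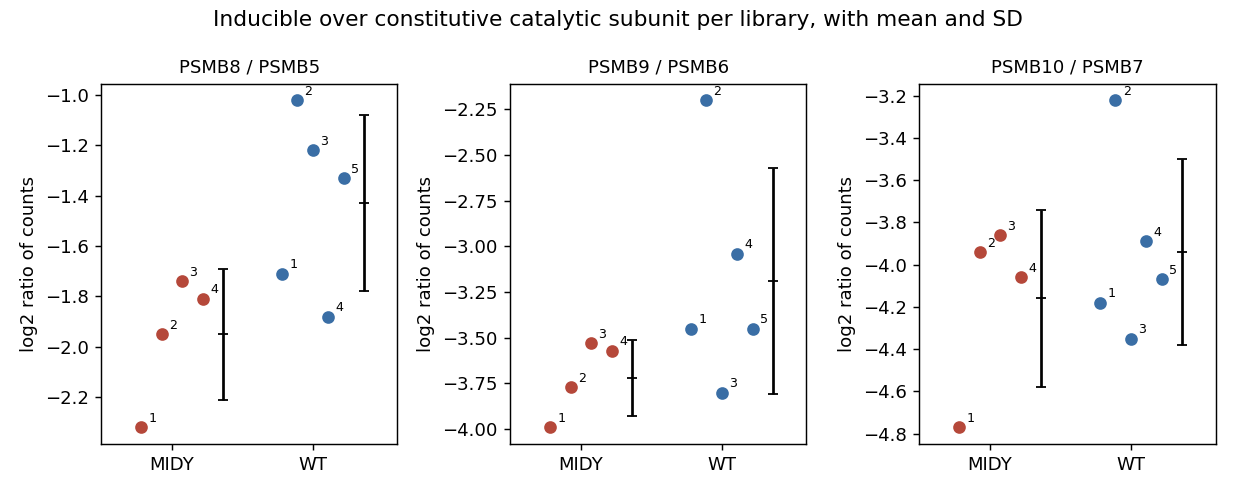
Log2 ratio of counts of each inducible proteasome subunit over its constitutive counterpart in each library, with mean and SD for the 4 MIDY and 5 WT libraries. WT replicate 2 is the top point in all 3 panels (-1.02, -2.20 and -3.22), and the MIDY and WT points overlap in each.

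Of 104 other genes listed for the pathway, 91 were in the table and 81 were tested, and edgeR's test called 0 of them, beside 1.17% of all genes. At an unadjusted p of 0.05, 17 were lower and 2 higher, beside 8% and 8.15% of all genes. Of the interferon genes themselves, 8 were in the table and 0 had enough counts to test. IFNB1, IFNA1, IFN-ALPHA-8, IFN-ALPHA-10 and IFN-DELTA-1 had 0 counts, and IFNG had 6 counts over all libraries. A count of 0 allows up to 0.154 to 0.213 CPM per library, here without TMM scaling (3 counts, counting error only). The 9 receptors and receptor kinases had a median log2 fold change of -0.03 and a median level in WT replicate 2 of 1.19 times the other WT libraries. JAK2 had the smallest p among them (-0.25 ± 0.09, edgeR adjusted p = 0.218). It had 42.1 to 49.5 CPM in MIDY and 51 to 58.5 CPM in WT, ranges that did not overlap, beside 2.63% of all genes. IFNGR1, a chain of the interferon gamma receptor, came next (-0.19 ± 0.12, edgeR adjusted p = 0.487).

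The 14 upstream sensors, adaptors and kinases had a median log2 fold change of -0.10. IRF5 and IRF3, transcription factors activated by such sensors, had the smallest p (-0.55 ± 0.19, edgeR adjusted p = 0.183, and -0.46 ± 0.17, edgeR adjusted p = 0.21). The 9 signal transducers and brakes had a median of 0.04, with IRF2, a repressor of interferon responses, at 0.34 ± 0.11 (edgeR adjusted p = 0.158) and IRF8 at -0.42 ± 0.16 (edgeR adjusted p = 0.237).

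Of the 32 further interferon-induced genes tested, 30 had fold changes below 0 (median -0.36), 11 of them at an unadjusted p of 0.05, and 21 were highest in WT replicate 2. Over all genes these shares were 50.7%, 8% and 11.9%. PLSCR1, a phospholipid scramblase, was at 14.4, 15, 9.43 and 11.2 CPM in MIDY and 15.5, 29.6, 23.1, 16.6 and 23.3 CPM in WT. Its groups did not overlap, beside 2.63% of all genes with every MIDY library lower (-0.79 ± 0.20, edgeR adjusted p = 0.0851, and 0.044 without WT replicate 1). PARP9, which overlaps its partner gene DTX3L, was at 9.8, 17.4, 13.9 and 13.4 CPM in MIDY and 18.8, 30.7, 21.9, 17.3 and 21.7 CPM in WT (-0.70 ± 0.19, edgeR adjusted p = 0.0956). The 17 constitutive proteasome genes tested had a median log2 fold change of -0.00 and a median level in WT replicate 2 of 1.05 times the other WT libraries, and 1 of them was highest in that library. PSME4 (0.29 ± 0.13, edgeR adjusted p = 0.292) and PSMA7 (-0.28 ± 0.14, edgeR adjusted p = 0.346) had the smallest p of these.

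Markers of T and NK cells were, like most members, lower in MIDY and highest in WT replicate 2 by their sum. Their summed level was 57.9, 63.9, 52 and 55.1 CPM in MIDY and 77.9, 134, 84.7, 73.9 and 73.5 CPM in WT, so the groups did not overlap. In this sum WT replicate 1 was above WT replicates 4 and 5, an order that leaned on CCL5. CCL5 was at 33.1 CPM in WT replicate 1 and at 28.4 and 23.3 CPM in WT replicates 4 and 5. CD3D, CD3E and CD3G had their lowest WT level in WT replicate 1, and the other tested markers had theirs elsewhere. MIDY replicate 2 was the highest MIDY library for some markers, such as GNLY, and the lowest for others, such as CD3D and KLRK1. The chemokine CCL5 gave the largest part of the sum, 63.5 CPM in WT replicate 2. All 14 tested markers of the list had fold changes below 0, beside 50.7% of all genes, and 1 of them, CD2, was called lower (-0.90 ± 0.18, edgeR adjusted p = 0.0377), beside 0.355% of all genes. That call was lost in 7 of the 9 fits that left out 1 library and kept without WT replicate 1 or WT replicate 5, with edgeR adjusted p from 0.0357 to 0.109. In bulk tissue, fewer cells of a type and less RNA per cell cannot be told apart. B and plasma cell markers summed to 15.5 to 23.1 CPM in MIDY and 22.6 to 55.3 CPM in WT, and neutrophil markers to 4.72 to 6.3 and 6.78 to 12.1 CPM, again highest in WT replicate 2. Stellate cell markers summed to 101 to 127 CPM in MIDY and 131 to 239 CPM in WT, with the same library highest. Singly, COL1A1, ACTA2 and DES were highest in WT replicate 2, PDGFRB in WT replicate 5, and RGS5 and LRAT in MIDY replicate 2. Within that list COL1A1 and ACTA2 had log2 fold changes of -1.05 and -1.12, DES -0.76 and PDGFRB -0.20, while RGS5 and LRAT had 0.46 and 0.37, and none was called by edgeR's test over all libraries. DESeq2 called COL1A1 (adjusted p = 0.00173) and ACTA2 (adjusted p = 0.0217) lower, beside 2.05% of genes. With 1 library left out, edgeR called COL1A1 in 2 fits. Summed Kupffer cell and macrophage markers overlapped (999 to 1351 and 1144 to 1551 CPM), as did endothelial (826 to 917 and 781 to 936 CPM), dendritic cell (6.32 to 10.3 and 8.2 to 13.7 CPM) and biliary markers (20.6 to 28.9 and 18.5 to 29.9 CPM). Of the 13 Kupffer cell and macrophage markers, 3 were lower and 1 higher at an unadjusted p of 0.05 in edgeR's test, beside 8% and 8.15% of genes. MARCO was higher in every MIDY library (0.98, edgeR adjusted p = 0.138, DESeq2 adjusted p = 0.0256), beside 3.72% of genes. CD163 was lower in every MIDY library (-0.21, edgeR adjusted p = 0.239), beside 2.63% of genes. The part of these cell types in the members' levels was not tested.

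Counting bears on several members. The MX, OAS, IFIT, GBP, HERC and IFI44 genes have close relatives, and reads that match more than 1 of them may be lost or misassigned, so their values are uncertain. RefSeq lists IFIT5 as a synonym of LOC100151816, which was at 19, 20.1, 15 and 14.6 CPM in MIDY and 12.2, 35.7, 22.8, 21.6 and 22.2 CPM in WT. WT replicate 1 was its lowest library and WT replicate 2 its highest (log2 fold change -0.42 ± 0.25, edgeR adjusted p = 0.435).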

How the data were processed

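RNA of 9 pig livers (4 MIDY, 5 WT) was extracted with Trizol, depleted of ribosomal RNA and made into libraries with the Encore Complete kit, per the labels' protocols. The deposited values are raw read counts per gene symbol. STAR, HTSeq, DESeq2 and Sscrofa11.1 are named in the submitters' processing notes, without versions, and no source used here gives the strand setting. Coordinates are RefSeq gene spans on Sscrofa11.1. Counts were tested with edgeR 4.0.16 (R 4.3.3): TMM scaling, filterByExpr and a robust quasi-likelihood fit over 14100 genes, with Benjamini-Hochberg adjustment over all of them. The common biological coefficient of variation was 21.5%. Standard errors are the log2 fold change over the square root of F. Alternatives were DESeq2 1.42.0, limma 3.58.1 (voom with sample weights), other scalings and filters, and leaving out libraries. The fits were tested on simulated data in which 200 of 14100 genes were changed. Each gene was drawn independently, so no simulated library carried a shift shared by many genes, and the rates below do not cover that case. EdgeR recovered 62% of the 2-fold and 94% of the 4-fold changes, with 11 false calls among 167. DESeq2 recovered 74% and 94%, with 35 false calls among 203, and limma voom 63% and 93%, with 11 among 167. Subunit ratios used a pseudocount of 0.5. Members and lists were chosen with earlier results of these data known. Values per library are given for members called, with groups that did not overlap, with a library past Dixon's gap limit, or with the 2 smallest p of their role, 22 in all. For the pathway lists, the 2 smallest p were named. Promoter motifs were not analysed here. Some genes of the pathway lists are not reported here by name.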

Additional observations from a re-analysis of the deposited data

Results flagged for a closer look

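In 9 of the 76 groups checked (35 members and 3 subunit ratios in each genotype), 1 library lay farther from the rest than Dixon's gap limit on the log2 scale allows, a limit that chance passes in about 5% of groups. The share of the group's range taken by the gap has a limit of 0.829 for 4 libraries and 0.71 for 5. In the MIDY group the separate library was replicate 2 each time, with gap shares of 0.833 for DHX58, 0.846 for USP18, 0.857 for IFIT1, 0.857 for CMPK2 and 0.929 for EIF2AK2. In the WT group it was also replicate 2 each time, with 0.742 for IFIH1, 0.744 for HERC6, 0.779 for IFIT3 and 0.817 for IFI44. All 9 were libraries on the high side, and the genes of a library share its animal and depth, so they are not separate observations.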

How the results depend on the processing

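Members called lower numbered 0 with all libraries, 1 with DESeq2 (ISG15) and 0 to 3 when each library was left out in turn, the 3 coming without WT replicate 1. Pathway genes called lower numbered 0, 3 with DESeq2 (PARP9, DDX60 and PLSCR1) and 0 to 1 when each library was left out. None was called higher under any alternative run. GBP1 had a log2 fold change of -0.30, which became 0.09 without WT replicates 1 and 2 together and ranged from -0.57 to 0.16 when each library was left out. Of 176 values of named members under the other alternatives, 174 kept direction and side of the threshold, as did 194 of 198 with 1 library left out. Over all genes, 165 were called by edgeR, 639 by DESeq2 and 38 to 259 with 1 library left out. WT replicate 2 was highest in 28 members, and in 29 with total counts alone. The cause of these differences was not tested. No paired analysis was possible because the labels give each animal its own number and pair no animals. USP18 and ZBP1 had the fewest counts of the tested members, 335 and 430 over all libraries.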

Other observations

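WT replicate 2 was above 2 times every other library in 42 of the 14100 genes tested, and genes outside the interferon response led that list, picked after their values were seen. HMGCS1, an enzyme of cholesterol synthesis, was 6.31 times the next highest library, and MVD, ACAT2 and SQLE of the same pathway were 2.66, 2.6 and 2.29 times it. CYP7A1, the rate-limiting enzyme of bile acid synthesis, was at 4.61 times. The acute-phase genes SAA3 and LCN2 were at 5.27 and 2.66 times, and the smooth muscle genes ACTG2 and CNN1 at 4.09 and 2.86 times.

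LGALS3BP and IFITM3, interferon-induced genes outside the members, were like IFI6 highest in WT replicate 1. LGALS3BP was at 26.6, 50.1, 18.1 and 11.4 CPM in MIDY and 74.9, 55.6, 47.3, 21.3 and 34.6 CPM in WT. IFITM3 was at 17.8, 11.5, 1.58 and 1.73 CPM in MIDY and 19.7, 14.4, 13.8, 7.5 and 14.1 CPM in WT. Both were noticed in the data and have no test of likeness.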
